A study of Mus musculus with 4 samples.

Results

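The genes described here were 7 subunits of activator protein 1 (AP-1), the zinc-finger factors Egr1 and Egr2, and the immediate early gene Ier3. They were taken by symbol from a table of FPKM (fragments per kilobase of exon, scaled to the total of mapped fragments) and numbered 10 of its 49585 genes. Of these 10 genes, 9 reached 1 FPKM in 1 or more libraries and are called expressed below, as were 12669 genes of the whole table. Egr2 was below 1 in all 4 libraries. Ier3 encodes a small stress-induced protein that acts on cell survival and is not a transcription factor, so it stands here as an immediate early gene only.

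Whole-transcriptome RNA was measured in clones of 4T1, a murine line of triple-negative breast cancer. 4T1-HM, of high metastatic capacity, and 4T1-LM, of low metastatic capacity, each descended from a single cell, so each phenotype was represented by 1 clone. Cells of both clones were cultured for 48 h with DMSO (HM_Ctrl and LM_Ctrl) or with 50 μmol/L of the iron chelator deferasirox, DFX, dissolved in DMSO (HM_DFX and LM_DFX). The study asked why iron depletion was tolerated differently by the clones. There was 1 library per condition, so no spread between cultures could be estimated, no difference below was tested, and every comparison is between libraries. No earlier time than 48 h was measured.

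AP-1 is a dimer of basic leucine zipper proteins. JUN subunits pair with each other or with FOS subunits, whereas FOS subunits need a JUN partner, and the composition of the dimer sets how strongly it drives transcription. The genes Fos, Fosb, Jun, Junb and Egr1 are classical immediate early genes, transcribed without new protein synthesis after growth factors or stress, while Jund, Fosl1 and Fosl2 can be held at a steady level. FOSL1 is known for its high level in triple-negative and mesenchymal-like breast cancer cells.

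The promoters of Fos, Jun and Junb are shown because the results below turn on these subunits. Promoter windows from 250 bases before to 50 bases after the transcription start were taken from RefSeq (GRCm38.p6, the assembly of mm10). They covered 8 of the 10 genes, 12 windows in all. No window of Fosl1 or Egr1 was searched, so motifs in their promoters are unknown here. Each stretch below runs from 130 bases before the start to the end of the 20 bases that begin at it. Capitals mark 4 motifs searched on both strands: the core TGACG of a cAMP response element, the site TGACATCA known from the jun promoter to bind AP-1, the TATA box as TATAAA and the binding site of the factor NF-Y as CCAAT. None of these motifs contains another.
Fos, chr12:85473760-85473909, plus strand: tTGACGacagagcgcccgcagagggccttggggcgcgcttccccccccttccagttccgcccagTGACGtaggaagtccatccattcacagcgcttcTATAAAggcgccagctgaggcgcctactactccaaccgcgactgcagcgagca
Jun, chr4:95052203-95052352, minus strand: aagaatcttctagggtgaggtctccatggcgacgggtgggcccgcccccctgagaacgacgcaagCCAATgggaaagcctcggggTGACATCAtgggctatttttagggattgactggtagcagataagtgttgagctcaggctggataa
Junb, chr8:84978729-84978878, minus strand: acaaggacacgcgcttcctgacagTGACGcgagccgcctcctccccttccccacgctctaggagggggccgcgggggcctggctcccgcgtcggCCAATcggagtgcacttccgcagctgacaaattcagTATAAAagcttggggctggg

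The Fos stretch held TGACG at bases -129 and -66 and TATAAA at base -33, counted from 0 at the start. In Jun, CCAAT lay at base -65 and TGACATCA at base -45. In Junb, TGACG lay at base -106, CCAAT at base -36 and TATAAA at base 0. The RefSeq start of Junb lies upstream of the start in the deposited table, so that TATAAA precedes the deposited gene. Of all 32851 mouse windows of 300 bases, 20.8% held TGACG, 3.62% TGACATCA, 13.6% TATAAA and 37.4% CCAAT. Among the other genes with a searched window, TGACG was in the windows of Fosb and Egr2, and CCAAT in those of Egr2 and Ier3. The full cAMP response element TGACGTCA (1.79% of windows) and the AP-1 element TGANTCA (7.81%) were in no window of the 8 genes. The EGR motif GCGNGGGCG (5.55%) was in the windows of Fosb and Fosl2, and the serum response motif known as the CArG box (1.63%) in those of Egr2. A match is a description of letters and no binding was measured. Sequence outside the windows was not searched, so a motif absent here can lie elsewhere at the same gene.

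The libraries held between 14363066 (HM_DFX) and 21883854 (LM_DFX) fragments. The epithelial markers Epcam, Cdh1, Krt8, Krt18, Krt14 and Krt19 were all expressed. Their summed FPKM was 1590 in HM_Ctrl and 533 in HM_DFX, with 2123 in LM_Ctrl and 1035 in LM_DFX. Most of each sum was Krt8 and Krt18, and the markers did not all move alike. Krt19 was higher with DFX in 4T1-LM (46.4 and 103 FPKM) but not in 4T1-HM (101 and 87.9). Krt14 was at 2.48 FPKM in HM_Ctrl and 54.3 in LM_Ctrl. Of 3 receptors that are low or absent in triple-negative cells, only Erbb2 was expressed. Endothelial markers summed to at most 0.188 FPKM and fibroblast markers to at most 1.08. Of 6 leukocyte markers only Cd68, a lysosomal protein, was expressed, at 12.9 FPKM in HM_Ctrl and 37.4 in HM_DFX, with 12.3 in LM_Ctrl and 83.1 in LM_DFX, and 3 or 4 of the 6 were at 0 in each library. Heat shock genes, which respond to cell handling, summed to 532, 420, 450 and 193 FPKM in the same order. Most of that sum was Hspa8 (440, 299, 401 and 133 FPKM), which was lower with DFX in both clones, as was Hsph1. Hspa1b and Dnajb1 were higher with DFX in both clones, with Dnajb1 at 18.6, 34.2, 18.8 and 28.2 FPKM. The part of these differences in the results below was not tested.

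At 2-fold, the clones differed in more of these genes with DFX than without it. In HM_DFX against LM_DFX, 6 of the 9 expressed genes (Fos, Fosb, Jun, Junb, Egr1 and Ier3) were at least 2-fold higher and 0 were at least 2-fold lower, against 3.31% and 5.05% of all expressed genes. In HM_Ctrl against LM_Ctrl, 1 gene (Ier3) was at least 2-fold higher and 0 were lower, against 3.65% and 3.15%. In HM_DFX against HM_Ctrl, 3 genes (Fos, Fosb and Jun) were higher and 0 lower, against 6.93% and 12.4%. In LM_DFX against LM_Ctrl, 1 gene (Jun) was higher and 2 (Junb and Egr1) were lower, against 7.09% and 8.72%. Folds for these counts were taken on the log2(FPKM + 1) scale, which understates the folds of genes near 1 FPKM. The contrast between the clones depended on the threshold. At 1.5-fold, 7 genes were higher and 0 lower in HM_DFX against LM_DFX, beside 9.95% and 14.6% of all expressed genes. In HM_Ctrl against LM_Ctrl, 2 (Jun and Ier3) were then higher and 2 (Junb and Egr1) lower, beside 10.5% and 8.70%. At 4-fold, 0 genes passed in either. These comparisons share libraries with each other and are not independent. In bulk RNA, fewer cells that express a gene and less RNA per cell cannot be told apart.

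**Figure D1:**
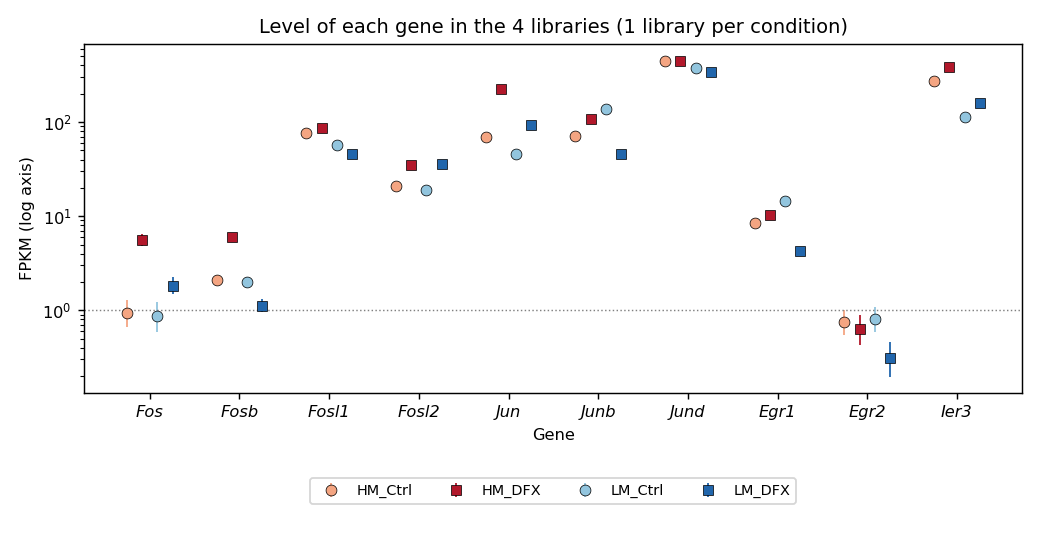
FPKM on a log axis of the 10 genes in HM_Ctrl, HM_DFX, LM_Ctrl and LM_DFX, with 95% counting intervals as bars (smaller than the symbol for most genes) and a dotted line at 1 FPKM. Jund lies highest in each library, between 341 and 450 FPKM, and HM_DFX is the highest library for Fos, Fosb, Fosl1, Jun, Jund and Ier3.

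The FOS subunits fell into a pair of abundant genes and a pair of rare ones. Fos (ENSMUSG00000021250, chr12:85473890-85477273, plus strand), the founding subunit, was at 0.939 FPKM in HM_Ctrl and 5.59 in HM_DFX, with 0.865 in LM_Ctrl and 1.83 in LM_DFX. These values rested on 37, 189, 32 and 94 fragments. Both control libraries were therefore just under 1 FPKM, and HM_DFX stood well above the other libraries. The FPKM ratio of HM_DFX to HM_Ctrl was 5.96 (95% exact interval 4.17 to 8.72), and that of LM_DFX to LM_Ctrl was 2.11 (1.40 to 3.26). All intervals of ratios are binomial, condition on the summed fragments and reflect counting error alone. With 1 FPKM added, the LM difference of Fos was 0.60 log2 and did not pass 2-fold.

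Fosb (ENSMUSG00000003545, chr7:19302696-19310051, minus strand), a subunit with a shorter splice form that persists after stimulation, was at 2.09 FPKM in HM_Ctrl and 6.08 in HM_DFX, with 1.99 in LM_Ctrl and 1.12 in LM_DFX. Without DFX the clones were alike within counting error, with an FPKM ratio of 1.06 (0.866 to 1.29). With DFX the level was higher in 4T1-HM and lower in 4T1-LM, with ratios to the control of 2.90 (2.48 to 3.41) and 0.564 (0.453 to 0.701). The HM_DFX library was 5.43-fold (4.53 to 6.54) above LM_DFX in Fosb, the largest such ratio among the 10 genes.

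Fosl1 (ENSMUSG00000024912, chr19:5447703-5455945, plus strand), which encodes FRA-1, was the most abundant FOS subunit. Its level was 77.1 FPKM in HM_Ctrl and 85.8 in HM_DFX, with 57.6 in LM_Ctrl and 46.3 in LM_DFX, so that both 4T1-HM libraries lay above both 4T1-LM libraries. HM_DFX was 1.86-fold (1.74 to 1.98) above LM_DFX, short of 2-fold. The DFX ratio was 1.11 (1.05 to 1.18) in 4T1-HM and 0.803 (0.750 to 0.861) in 4T1-LM. Fosl2 (ENSMUSG00000029135, chr5:32135801-32157842, plus strand), which encodes FRA-2, was at 20.8 FPKM in HM_Ctrl and 35.0 in HM_DFX, with 18.9 in LM_Ctrl and 35.5 in LM_DFX. Here the libraries divided by treatment and not by clone. The DFX ratio was 1.68 (1.61 to 1.76) in 4T1-HM and 1.88 (1.80 to 1.97) in 4T1-LM, and the DFX libraries differed by less than counting error, with a ratio of 0.984 (0.949 to 1.02). Fosl2 was the 1 expressed gene of the 9 in which HM_DFX was not above LM_DFX, and its log2 difference of -0.02 became 0.05 when libraries were scaled by the median of ratios.

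Among the JUN subunits, Jun and Junb moved with treatment and Jund was nearly constant. Jun (ENSMUSG00000052684, chr4:95049034-95052222, minus strand), the strongest activator of the group, was at 70.2 FPKM in HM_Ctrl and 225 in HM_DFX, with 46.0 in LM_Ctrl and 93.7 in LM_DFX. It was higher with DFX in each clone, with a ratio of 3.21 (3.09 to 3.33) in 4T1-HM and 2.04 (1.94 to 2.14) in 4T1-LM. HM_DFX was 2.40-fold (2.33 to 2.48) above LM_DFX, while HM_Ctrl was 1.53-fold (1.45 to 1.61) above LM_Ctrl. By FPKM, Jun ranked 186 from the top of the table in HM_DFX and 1260 in LM_Ctrl. On the log2(FPKM + 1) scale its range over the 4 libraries, 2.27, was the widest of the 10 genes. By the FPKM ratio of the highest to the lowest library, Jun (4.90) stood below Fos (6.47) and Fosb (5.43).

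Junb (ENSMUSG00000052837, chr8:84974484-84978718, minus strand), a weaker activator that can oppose JUN, was at 70.6 FPKM in HM_Ctrl and 107 in HM_DFX, with 137 in LM_Ctrl and 45.3 in LM_DFX. LM_Ctrl was the highest of the libraries and LM_DFX the lowest, and both 4T1-HM libraries lay between them. The DFX ratio was 1.51 (1.44 to 1.59) in 4T1-HM and 0.331 (0.315 to 0.348) in 4T1-LM. The order of the clones thus changed: HM_Ctrl was at 0.517 (0.493 to 0.541) of LM_Ctrl, and HM_DFX was 2.36-fold (2.24 to 2.49) above LM_DFX.

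Jund (ENSMUSG00000071076, chr8:70698949-70700616, plus strand), the subunit known for steady expression, was at 442 FPKM in HM_Ctrl and 450 in HM_DFX, with 377 in LM_Ctrl and 341 in LM_DFX. The highest library was 1.32-fold above the lowest, the narrowest ratio among the 10 genes. The DFX ratio was 1.02 (0.992 to 1.04) in 4T1-HM, within counting error of no change, and 0.903 (0.880 to 0.928) in 4T1-LM.

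Several of these genes overlap a gene on the opposite strand in the deposited table. The overlap is 919 bases for Jund with Gm11175, 689 for Jun with Junos and 351 for Junb with Prdx2. The strand setting of the counting is not given in the sources used here, and without strand the reads of such pairs cannot be told apart. Gm11175 was between 64.6 and 94.3 FPKM and Junos between 1.17 and 2.54. Prdx2, a peroxiredoxin, was at 79.6 FPKM in HM_Ctrl and 31.6 in HM_DFX, with 98.3 in LM_Ctrl and 40.8 in LM_DFX, so it was lower with DFX in both clones while Junb was lower in 4T1-LM only. Of the 31-base words of Fosl1 in GENCODE M21, 54.5% also occur on the opposite strand of Ccdc85b, although no gene overlaps Fosl1 in the deposited table. On the same strand, no more than 0.406% of the 31-base words of any of the 10 genes were shared with another gene.

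The mix of AP-1 subunit RNAs differed among the libraries. The FPKM of the 7 subunits summed to 684 in HM_Ctrl and 914 in HM_DFX, with 639 in LM_Ctrl and 564 in LM_DFX. Jund made up 64.6% of that sum in HM_Ctrl and 49.2% in HM_DFX, with 59.0% in LM_Ctrl and 60.4% in LM_DFX. In 4T1-HM the share of Jun was 10.3% without DFX and 24.6% with it, and that of Junb was 10.3% and 11.7%. In 4T1-LM the share of Jun was 7.19% without DFX and 16.6% with it, whereas that of Junb was 21.4% and 8.02%. The ratio of Jun to Junb was 0.995 (0.947 to 1.05) in HM_Ctrl and 0.337 (0.320 to 0.354) in LM_Ctrl, and with DFX it was 2.11 (2.03 to 2.19) in 4T1-HM and 2.07 (1.97 to 2.17) in 4T1-LM. The clones thus differed in this ratio without DFX and lay within each other's counting intervals with DFX. JUN RNAs exceeded FOS RNAs by 5.77-fold in HM_Ctrl and 5.90-fold in HM_DFX, with 7.06-fold in LM_Ctrl and 5.66-fold in LM_DFX. Within the FOS group, the ratio of Fosl1 to Fosl2 was 3.71 in HM_Ctrl and 2.45 in HM_DFX, with 3.05 in LM_Ctrl and 1.30 in LM_DFX. These are RNA levels and no protein was measured.

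**Figure D2:**
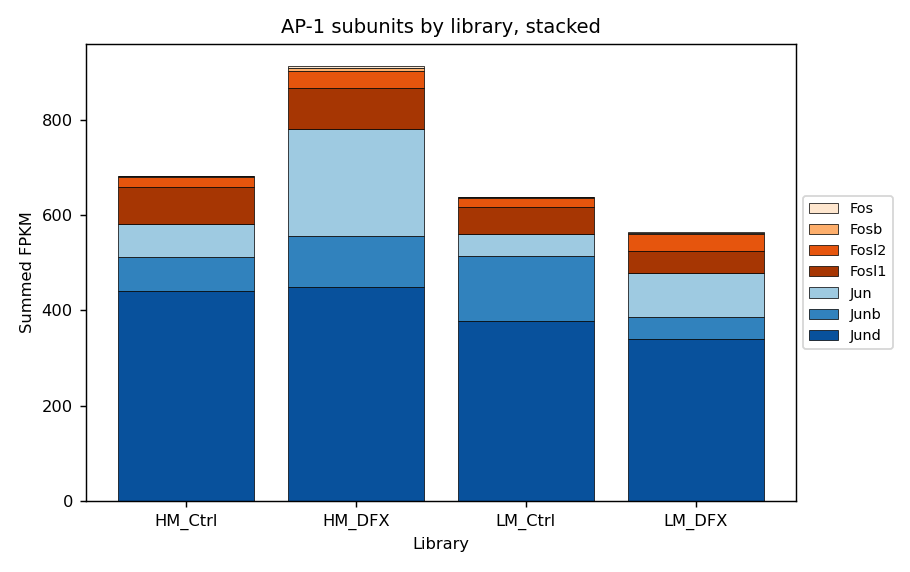
Stacked bars of the FPKM of the 7 AP-1 subunits in each library, JUN subunits in blue and FOS subunits in orange. The bar of HM_DFX reaches 914 FPKM with a Jun segment of 225, and that of LM_DFX reaches 564 with a Junb segment of 45.3.

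Egr1 (ENSMUSG00000038418, chr18:34859823-34864984, plus strand), a zinc-finger factor that binds GC-rich promoters, was at 8.55 FPKM in HM_Ctrl and 10.2 in HM_DFX, with 14.6 in LM_Ctrl and 4.22 in LM_DFX. As with Junb, LM_Ctrl was the highest library and LM_DFX the lowest. The DFX ratio was 1.19 (1.07 to 1.33) in 4T1-HM and 0.289 (0.257 to 0.324) in 4T1-LM, and HM_DFX was 2.42-fold (2.13 to 2.74) above LM_DFX. Egr2 (ENSMUSG00000037868, chr10:67535475-67542188, plus strand), a related factor best known from myelinating and immune cells, was at 0.756 FPKM in HM_Ctrl and 0.635 in HM_DFX, with 0.804 in LM_Ctrl and 0.309 in LM_DFX. Those values came from 43, 31, 43 and 23 fragments and were not counted in any comparison. The Egr2 ratio of LM_DFX to LM_Ctrl, 0.385, had an interval of 0.221 to 0.652.

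Ier3 (ENSMUSG00000003541, chr17:35821684-35822923, plus strand) was at 273 FPKM in HM_Ctrl and 388 in HM_DFX, with 114 in LM_Ctrl and 161 in LM_DFX. Each 4T1-HM library lay above both 4T1-LM libraries. HM_Ctrl was 2.40-fold (2.28 to 2.52) above LM_Ctrl and HM_DFX was 2.41-fold (2.31 to 2.51) above LM_DFX. The DFX ratio was 1.42 in both clones, with intervals of 1.37 to 1.48 in 4T1-HM and 1.34 to 1.49 in 4T1-LM. Ier3 was therefore the gene of the group whose clone difference was the same with and without DFX, and its DFX responses differed by 0.01 log2.

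**Figure D3:**
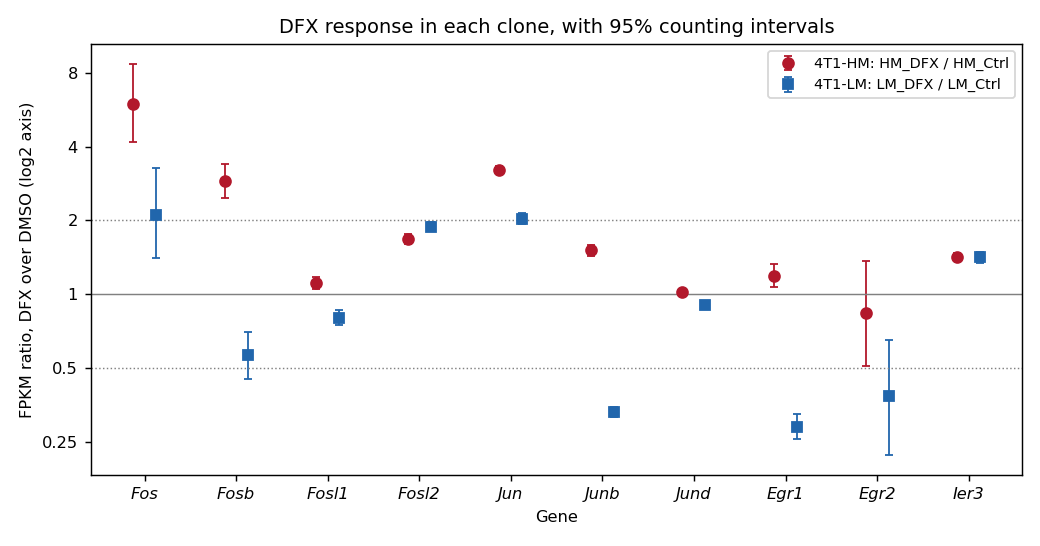
FPKM ratio of DFX to DMSO on a log2 axis for each gene in 4T1-HM (circles) and 4T1-LM (squares), with 95% counting intervals as bars and dotted lines at 2-fold. Fosb, Junb and Egr1 lie above 1 in 4T1-HM and below 1 in 4T1-LM, and Ier3 lies at 1.42 in both.

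The difference of the DFX responses, HM minus LM on the log2(FPKM + 1) scale, sets the clones side by side. It passed 2-fold for 4 of the 9 expressed genes, all toward a higher response in 4T1-HM, and for 0 in the other direction, against 3.52% and 5.38% of expressed genes. The values were 2.16 for Junb, 1.81 for Egr1, 1.69 for Fosb and 1.17 for Fos. Of all expressed genes, 0.26% had a difference at least as high as Junb, 0.53% as Egr1, 0.71% as Fosb and 2.32% as Fos. The other differences were 0.66 for Jun, 0.46 for Fosl1, 0.17 for Jund, 0.01 for Ier3 and -0.16 for Fosl2. The median over the 9 genes was 0.66, beside -0.08 over all expressed genes. Since the controls enter here, the values for Junb and Egr1 also carry the higher level of those genes in LM_Ctrl than in HM_Ctrl.

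The direction of the DFX response was opposite in the clones for 5 of the 9 expressed genes (55.6%), Fosb, Fosl1, Junb, Jund and Egr1, each positive in 4T1-HM and negative in 4T1-LM. Of all expressed genes, 2915 (23.0%) had opposite directions. Of the 5, Jund did not differ from its control beyond counting error in 4T1-HM. The median DFX response of the 9 genes was 0.59 log2 in 4T1-HM, beside -0.10 for all expressed genes, and -0.15 in 4T1-LM, beside -0.04. When libraries were scaled by the median of ratios, the median of all expressed genes in 4T1-HM was 0.00, and the shares of expressed genes past 2-fold there became 8.90% higher and 10.1% lower, with the same genes of the group called.

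**Figure D4:**
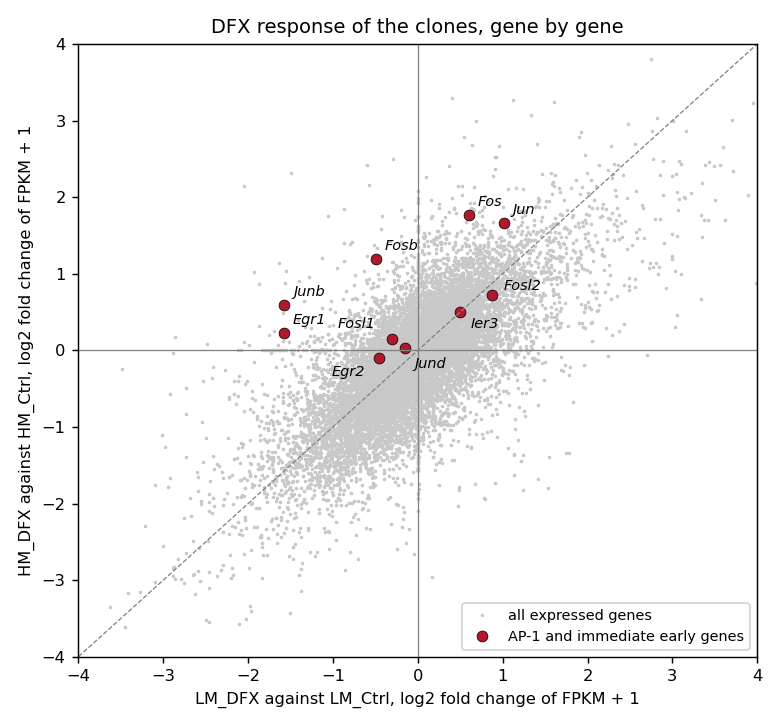
DFX response in 4T1-LM (x axis) against 4T1-HM (y axis), each as the log2 fold change of FPKM + 1, for all expressed genes (grey; 29 lie outside the plotted range of 4 in either direction) and the 10 named genes (red), with a dashed line of equal response. Fos, Fosb, Jun, Junb and Egr1 lie above the dashed line by 0.66 or more, and Fosl2 and Ier3 lie close to it.

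Other leucine zipper proteins that pair or compete with AP-1 were described from a list of 12, of which 8 were expressed. Under DFX 4 of the 8 were at least 2-fold higher in 4T1-HM and 3 in 4T1-LM, with 0 lower in either. Of all expressed genes, 6.93% were higher and 12.4% lower in 4T1-HM, and 7.09% higher and 8.72% lower in 4T1-LM. The median response of the 8 was 0.81 log2 in 4T1-HM and 0.57 in 4T1-LM, beside -0.10 and -0.04 for all expressed genes. Atf3, a stress-induced partner of JUN, was at 45.0 FPKM in HM_Ctrl and 385 in HM_DFX, with 5.05 in LM_Ctrl and 184 in LM_DFX. With DFX Atf3 was thus above Jun in each clone, whereas it was below Jun in both controls. Its DFX ratio was 8.56 (8.13 to 9.03) in 4T1-HM and 36.6 (31.4 to 42.8) in 4T1-LM, so that, unlike Junb and Egr1, it had the larger ratio in 4T1-LM. Of the small MAF proteins, which lack an activation domain, Mafk and Maff were at least 2-fold higher with DFX in both clones, and Mafg was not, with log2 fold changes of 0.43 in 4T1-HM and 0.41 in 4T1-LM. Mafk was at 10.5, 49.1, 9.34 and 31.7 FPKM in HM_Ctrl, HM_DFX, LM_Ctrl and LM_DFX, and Maff at 30.4, 84.5, 22.7 and 110 in that order.

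Of 30 other immediate early genes, 27 were expressed, and they did not move as 1 group. Under DFX 11 were at least 2-fold higher and 5 lower in 4T1-HM, and 8 were higher and 4 lower in 4T1-LM. The shares of all expressed genes were 6.93% higher and 12.4% lower in 4T1-HM, and 7.09% and 8.72% in 4T1-LM. Their median response was 0.81 log2 in 4T1-HM and 0.33 in 4T1-LM, beside -0.10 and -0.04 for all expressed genes. In HM_Ctrl against LM_Ctrl, 5 of the 27 were higher and 3 lower, beside 3.65% and 3.15% of all expressed genes. In HM_DFX against LM_DFX, 8 were higher and 0 lower, beside 3.31% and 5.05%. Csrnp1, a nuclear protein induced by AXIN1, was at 6.67 FPKM in HM_Ctrl and 171 in HM_DFX, with 4.59 in LM_Ctrl and 89.2 in LM_DFX. Dusp1, a phosphatase that switches off MAP kinases, was at 7.20, 52.0, 2.71 and 20.9 FPKM in that order. Both were higher with DFX in both clones. Plk2, a stress-responsive polo-like kinase, was at 26.2, 140, 42.3 and 80.6 FPKM, with a ratio of 5.33 (5.01 to 5.67) in 4T1-HM and 1.90 (1.80 to 2.01) in 4T1-LM. Gadd45b, a stress sensor, was at 13.8, 64.3, 40.2 and 58.1 FPKM, lowest in HM_Ctrl. Plk3, another polo-like kinase, was at 51.4, 107, 14.7 and 46.9 FPKM, higher in 4T1-HM than in 4T1-LM both without and with DFX.

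Lower with DFX were Ctgf and Cyr61, secreted matricellular proteins, and Ier2. Ctgf was at 22.9 FPKM in HM_Ctrl and 1.87 in HM_DFX, with 103 in LM_Ctrl and 2.75 in LM_DFX. Cyr61 was at 50.9, 38.4, 255 and 57.8 FPKM in that order, and passed 2-fold in 4T1-LM only. Both were at least 2-fold higher in LM_Ctrl than in HM_Ctrl, whereas Dusp1 and Plk3 were at least 2-fold higher in HM_Ctrl. Ier2 was at 46.5, 15.2, 53.5 and 9.31 FPKM, lower with DFX in each clone, although Ier3 was higher. Egr3, named after its values were seen because it is the nearest relative of Egr1 and Egr2 in the list, was at 3.63, 0.393, 2.47 and 0.194 FPKM. Thus Egr3 was lower with DFX in both clones, and Egr1 in 4T1-LM only. In the difference of the DFX responses, 6 of the 27 genes passed 2-fold toward 4T1-HM and 0 toward 4T1-LM, beside 3.52% and 5.38% of all expressed genes. The 6 were Ctgf, Cyr61, Gadd45b, Plk2, Rhob and Nr4a2. Ctgf and Cyr61 fell less in 4T1-HM than in 4T1-LM and rose in neither clone. Both of them, and Gadd45b and Plk2, were higher in LM_Ctrl than in HM_Ctrl, which enters the difference. Rhob and Nr4a2 were higher with DFX in 4T1-HM and lower in 4T1-LM.

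**Figure D5:**
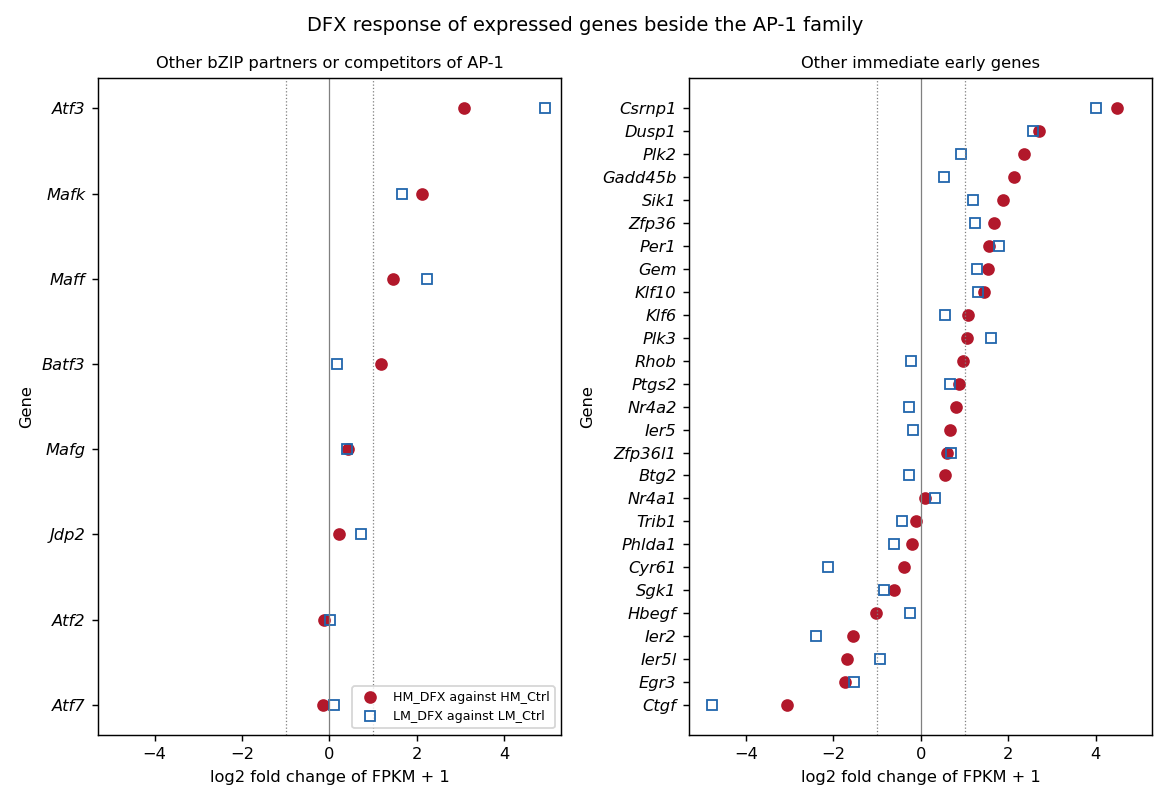
DFX response, as the log2 fold change of FPKM + 1, of the 8 expressed leucine zipper partners (left) and the 27 other expressed immediate early genes (right), in 4T1-HM (filled circles) and 4T1-LM (open squares), with dotted lines at 2-fold. Atf3 lies farther right in 4T1-LM (4.94) than in 4T1-HM (3.07), and Ctgf lies farthest left in both clones.

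All 24 kinases and factors upstream of these genes on the list were expressed. Under DFX 1 was at least 2-fold higher and 3 were lower in 4T1-HM, and 1 was higher and 1 lower in 4T1-LM, beside 6.93% and 12.4% of all expressed genes in 4T1-HM and 7.09% and 8.72% in 4T1-LM. Their median response was 0.07 log2 in 4T1-HM and -0.09 in 4T1-LM, beside -0.10 and -0.04. Elk3, a ternary complex factor that acts with the serum response factor, was at 45.2 FPKM in HM_Ctrl and 8.52 in HM_DFX, with 50.3 in LM_Ctrl and 15.4 in LM_DFX, and was at least 2-fold lower with DFX in both clones. Rps6ka4 (the kinase MSK2) and Mapk3 (ERK1) were at least 2-fold lower in 4T1-HM, with log2 fold changes of -1.39 and -1.10. Mef2a was higher in 4T1-HM, with a log2 fold change of 1.01, and Map2k1 (MEK1) in 4T1-LM, with 1.21. Between the clones, 0 of the 24 passed 2-fold, with or without DFX. Few of all expressed genes did so: 3.65% were higher and 3.15% lower in 4T1-HM without DFX, and 3.31% and 5.05% with it. Nab2, a co-repressor that binds EGR1, was at 14.6, 2.98, 10.1 and 5.80 FPKM in the same order, and passed 2-fold in 4T1-HM, where Egr1 did not. Nab1, the related co-repressor, did not pass 2-fold in either clone.

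Genes known to carry AP-1 sites were described from a list of 25, of which 22 were expressed. Under DFX 2 were at least 2-fold higher and 7 lower in 4T1-HM, and 3 were higher and 8 lower in 4T1-LM. Among all expressed genes, too, lower genes outnumbered higher ones, with 6.93% higher and 12.4% lower in 4T1-HM and 7.09% and 8.72% in 4T1-LM, and the difference of the list from all genes was not tested. The median was -0.45 log2 in 4T1-HM and -0.56 in 4T1-LM, beside -0.10 and -0.04 for all expressed genes. Mmp3, a matrix protease gene with a classical AP-1 site, was at 100 FPKM in HM_Ctrl and 12.3 in HM_DFX, with 25.3 in LM_Ctrl and 4.79 in LM_DFX. Mmp14 (63.1, 9.04, 67.1 and 13.7 FPKM), Plau, the urokinase gene (70.5, 10.3, 132 and 36.7), and Ccnd1, the cyclin D1 gene (293, 45.5, 326 and 78.3), were also lower with DFX in both clones. Hmox1, the heme oxygenase gene, was higher, at 34.2, 169, 9.91 and 86.1 FPKM. Mmp9 was at 1.64, 0.748, 108 and 24.0 FPKM, far lower in both 4T1-HM libraries than in the 4T1-LM libraries. Timp1, an inhibitor of matrix proteases, was at 49.6, 21.3, 116 and 49.3 FPKM, lower with DFX in both clones and higher in LM_Ctrl than in HM_Ctrl.

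Of 9 expressed genes known to carry EGR1 sites, 2 were at least 2-fold higher and 3 lower in 4T1-HM, and 2 were higher and 2 lower in 4T1-LM, beside 6.93% and 12.4% of all expressed genes in 4T1-HM and 7.09% and 8.72% in 4T1-LM. Their median was -0.69 log2 in 4T1-HM and -0.24 in 4T1-LM, beside -0.10 and -0.04. Cdkn1a, the cell cycle inhibitor p21, was at 14.1 FPKM in HM_Ctrl and 84.5 in HM_DFX, with 8.09 in LM_Ctrl and 61.3 in LM_DFX. F3, the tissue factor gene, was at 2.15, 8.90, 6.36 and 14.0 FPKM. Thbs1, an extracellular matrix protein, was at 109, 35.7, 241 and 48.0 FPKM, and Pdgfb, a growth factor, at 20.7, 11.5, 64.2 and 15.9, with the highest value of each in LM_Ctrl, as for Egr1. Of 4 expressed heat shock genes, Hspa1b was higher with DFX in both clones (18.2, 51.2, 5.62 and 17.8 FPKM), and Hspa8 was past 2-fold lower in LM_DFX only, with a log2 fold change of -1.58. Hsph1 was at 54.5, 34.9, 23.7 and 13.6 FPKM. In HM_DFX against LM_DFX, 6 of the 9 AP-1 and immediate early genes passed 2-fold upward. So did 3 of these 4 heat shock genes (Hspa1b, Hsph1 and Hspa8), beside 3.31% of all expressed genes. For 2 of these 3 the clones already differed without DFX. Log2 fold changes toward 4T1-HM were then 1.53 for Hspa1b and 1.17 for Hsph1, but 0.13 for Hspa8. Of the 9 genes, Ier3 alone passed 2-fold without DFX. The part of the heat shock genes in the result for the 9 genes was not tested.

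The genes nearest to the pattern of Jun were sought, because Jun had the widest range of the 10 genes on the log2(FPKM + 1) scale, though not by FPKM ratio. Likeness was the Euclidean distance over the 4 libraries between log2(FPKM + 1) values centred on each gene's mean, and the median distance of 10766 expressed protein-coding genes from Jun was 1.80. The nearest were Atg14 (distance 0.10), Nbr1 (0.23), Slc7a1 (0.24), Gm7008 (0.26) and Tmem212 (0.27). Atg14, a subunit of the lipid kinase complex that starts autophagy, was at 7.53 FPKM in HM_Ctrl and 23.8 in HM_DFX, with 4.31 in LM_Ctrl and 10.1 in LM_DFX. Nbr1, an autophagy receptor, was at 28.9, 75.6, 16.6 and 36.9 FPKM in that order. Slc7a1, a carrier of cationic amino acids, was at 28.1, 74.9, 18.2 and 36.8 FPKM. With 4 libraries many genes can share a pattern, so the order is a description.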

How the data were processed

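RNA of 4T1-HM and 4T1-LM cells was sequenced by the authors from poly(A) RNA with directional libraries. The methods also mention depletion of ribosomal RNA. The submitters' processing notes name FastQC, Trimmomatic, HISAT2, featureCounts and mm10. Versions and the strand setting are not given in the sources used here. The authors deposited FPKM per gene, 1 column per library, with no filter. Groups were taken from the labels.

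Fold changes were log2 ratios of FPKM + 1, for genes that reached 1 FPKM in 1 or more libraries, called at 2-fold. The study's edgeR test was not run, because it needs counts and replicates. Fragments were recovered from the FPKM and gene lengths (GENCODE M21, or for Fosl1 a length of 1707 bases solved from its values): 96.8% of 18235 genes came out whole within 0.02 in all 4 libraries. They served only for depth and for 95% exact binomial intervals of ratios. Recovery and folds were tested on simulated data.

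The 10 genes and all lists were chosen with earlier results of these data known. From each list beside the cell type markers, up to 4 genes past 2-fold in HM_Ctrl against LM_Ctrl or in either DFX comparison, and at 5 FPKM or more in the higher library, were named, by size of the fold per comparison. Egr3, Mafg, Nab1 and Dnajb1 were named outside this rule, and the motifs shown in capitals were added after the others had been searched. Results were recomputed with 0.1 FPKM added, without the filter, with a filter at a mean of 1 FPKM, with scaling by the median of ratios or to the 75th percentile, and at 1.5-fold and 4-fold. Python 3.11.15, numpy 2.4.6, pandas 2.3.3, scipy 1.17.1 and matplotlib 3.10.9 were used.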

Additional observations from a re-analysis of the deposited data

Results flagged for a closer look

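With 1 library per condition, a gene is listed here when its DFX response had opposite directions in the clones, and the difference was not tested. The difference of the responses (HM minus LM, on the log2(FPKM + 1) scale) was 2.16 for Junb, the response being 0.59 in 4T1-HM and -1.57 in 4T1-LM. It was 1.81 for Egr1 (0.23 and -1.58) and 1.69 for Fosb (1.19 and -0.49). The smaller differences were 0.46 for Fosl1 (0.15 and -0.31) and 0.17 for Jund (0.03 and -0.15), and the 4T1-HM response of Jund was within counting error of 0.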

How the results depend on the processing

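The 5 counts of genes past 2-fold held the same genes with a pseudocount of 0.1, without a filter, with a filter on mean FPKM and with either scaling. They moved with the threshold. At 1.5-fold, 4 genes passed in HM_Ctrl against LM_Ctrl, 5 in HM_DFX against HM_Ctrl and 5 in LM_DFX against LM_Ctrl, in place of 1, 3 and 3. In HM_DFX against LM_DFX 7 passed in place of 6, and in the difference of the responses 5 in place of 4. At 4-fold, 0 passed in each of the 4 comparisons of libraries, and 1 (Junb) passed in the difference of the responses. Of 150 recomputed log2 folds of the 10 genes, 148 kept their sign, and the others were the -0.02 of Fosl2 between the DFX libraries, which became 0.05 and 0.02 under the scalings. No paired analysis was possible because each condition has 1 library and the labels carry no replicate numbers. For the same reason no replicate could be left out. Depth limits Fos and Egr2, which rest on 23 to 189 fragments. Intervals exclude variation between cultures, which is unknown here.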
